A study of Homo sapiens with 4 samples.

Results

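The genes described here were 41 genes for translation initiation factors and their closest regulators, among the 20056 protein-coding genes of the RefSeq table (GRCh38.p14). They were taken by name, from EIF1 to EIF6, and their binding by IGF2BP2 was read from peaks on the strand of the gene whose Ensembl identifier was that of a member. Peaks that lay mainly antisense to a gene or between genes were left out, and members without a peak were counted too. An identifier could be placed by position for 40 members, and EIF3C had none. The identifier placed on EIF4A1 may be that of a read-through RNA that spans this gene.

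IGF2BP2 is an RNA-binding protein and a reader of m6A, a methyl mark on adenosines of mRNA. The RNA came from Jurkat cells, a human T-cell acute lymphoblastic leukemia line that carried no other treatment in the labels. In iRIP-seq, RNA was fixed by UV light to the proteins it touched, an antibody against IGF2BP2 pulled the protein down, and the RNA that came with it was sequenced. There were 2 IGF2BP2 iRIP libraries and 2 input libraries. The inputs were not analysed here, so a peak height cannot separate binding from the abundance of the RNA, and although the paper calls the replicates independent, the sources do not say whether they were separate cultures.

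Translation initiation is the step in which the small ribosomal subunit finds the start codon of an mRNA. The cap-binding complex eIF4F recruits the mRNA, eIF2 brings the initiator tRNA, eIF3 bridges the mRNA and the ribosome, and the scanning factors read along the 5′ UTR until the start codon is met. Most of these factors are needed by every growing cell, and the mRNAs that encode them are often abundant.

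Replicate 1 listed 145715 peaks and replicate 2 listed 137934, and 74237 and 77288 of these were sense peaks. A peak was a run of bins of 50 nt, and its height was given in tags, which behaved as the mean number of reads over its bins. The list of replicate 1 started at 4 tags and that of replicate 2 at 5 tags. How many reads each library had is unknown, and heights are given without a depth adjustment. Over all protein-coding genes, 43.7% had a sense peak in both replicates and 15% had overlapping peaks. Of 12 T lineage markers, 9 had a sense peak in both replicates (75%, ZAP70, BCL11B, LCK and CD3D among them) and 7 had overlapping peaks (58.3%). Of 6 B cell markers 2 had a sense peak in both replicates (33.3%), of 6 myeloid markers 1 (16.7%) and of 5 erythroid markers 0. No overlapping peaks were found on any of these. An identifier was named for 11 of the 12 T lineage markers but for only 4 of the B cell, 4 of the myeloid and 1 of the erythroid markers, and a gene without a named identifier could not be given a peak.

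Almost every initiation factor gene carried IGF2BP2 peaks. A sense peak was present on 38 members in replicate 1, where 54.5% of all protein-coding genes had one, and on 40 members in replicate 2, against 52.9%. In both replicates, 38 of 41 members had a sense peak (92.7%), against 43.7% of protein-coding genes. A peak that lay mainly in an exon was found in both replicates on 33 members (background 22.1%). Peaks of the 2 replicates overlapped by at least 1 bp on 30 members (73.2%, background 15%). In both replicates, 15 members reached 10 tags or more (36.6%, background 3.75%), and on 10 members an overlapping pair did so on either side (background 2.83%).

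This background may also hold genes with no RNA in Jurkat cells, so the same counts were set against genes with a sense peak in both replicates. Of those 8772 protein-coding genes, 50.5% had exonic peaks in both, 34.4% had overlapping peaks, 8.58% reached 10 tags in both and 6.48% had an overlapping pair that did. The 38 members with peaks in both had a median of 6 peaks in each replicate, and the 8772 genes had a median of 4. The median height of the highest peak was 7 and 12.5 tags on these members, against 5 and 6 tags on the 8772 genes. The members were shorter genes, with a median length of 22.6 kb against 53.4 kb. RNA abundance was not measured here, and its part in these counts was not tested.

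**Figure D1:**
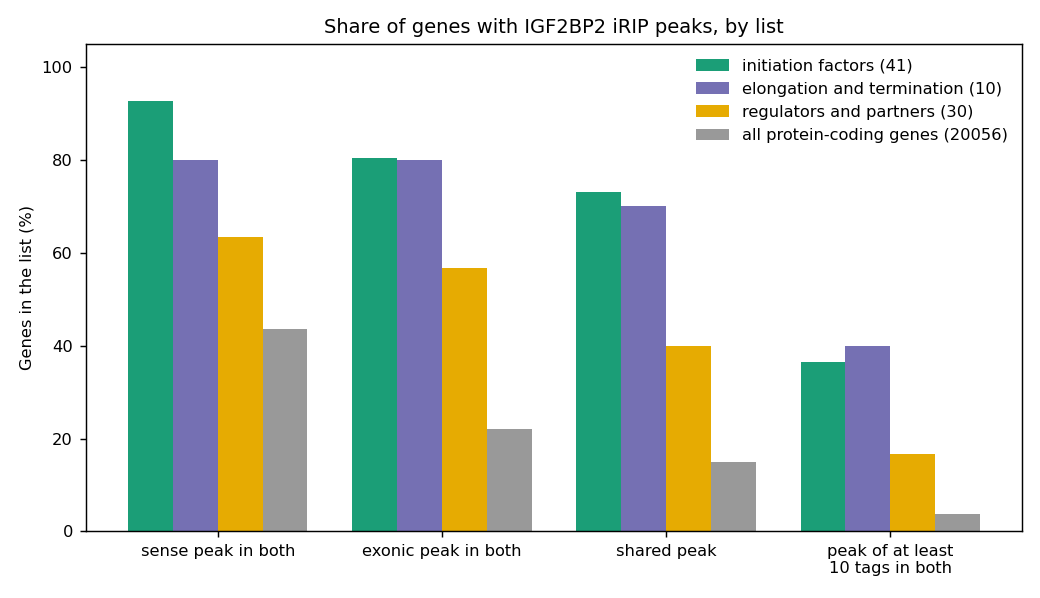
Share of genes (%) with IGF2BP2 iRIP peaks for the 41 initiation factor genes, 10 elongation and termination factor genes, 30 regulators and partners of initiation and all 20056 protein-coding genes, by 4 ways of counting. The initiation factors stand at 92.7% for a sense peak in both replicates and at 36.6% for 10 tags or more in both, where all protein-coding genes stand at 43.7% and 3.75%.

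The members held 277 sense peaks in replicate 1 and 310 in replicate 2, with a median of 5 and 6 peaks per member and up to 29 and 34. Their median height was 5 and 7 tags, against 4 and 5 tags over all sense peaks. At least 10 tags were reached by 35 member peaks in replicate 1 (12.6%) and 80 in replicate 2 (25.8%), against 2.73% and 8.75% of all sense peaks. The lowest listed height was held by 42.2% and 31.3% of member peaks, against 66.8% and 54.4% of all sense peaks. With a missing peak taken as 0, the highest peak of a member was higher in replicate 2 for 34 members, higher in replicate 1 for 4 and equal for 3. Over the 38 members with peaks in both, the Spearman correlation between replicates was 0.704 for the number of peaks and 0.749 for the height of the highest peak, a description across genes that share 2 libraries.

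**Figure D2:**
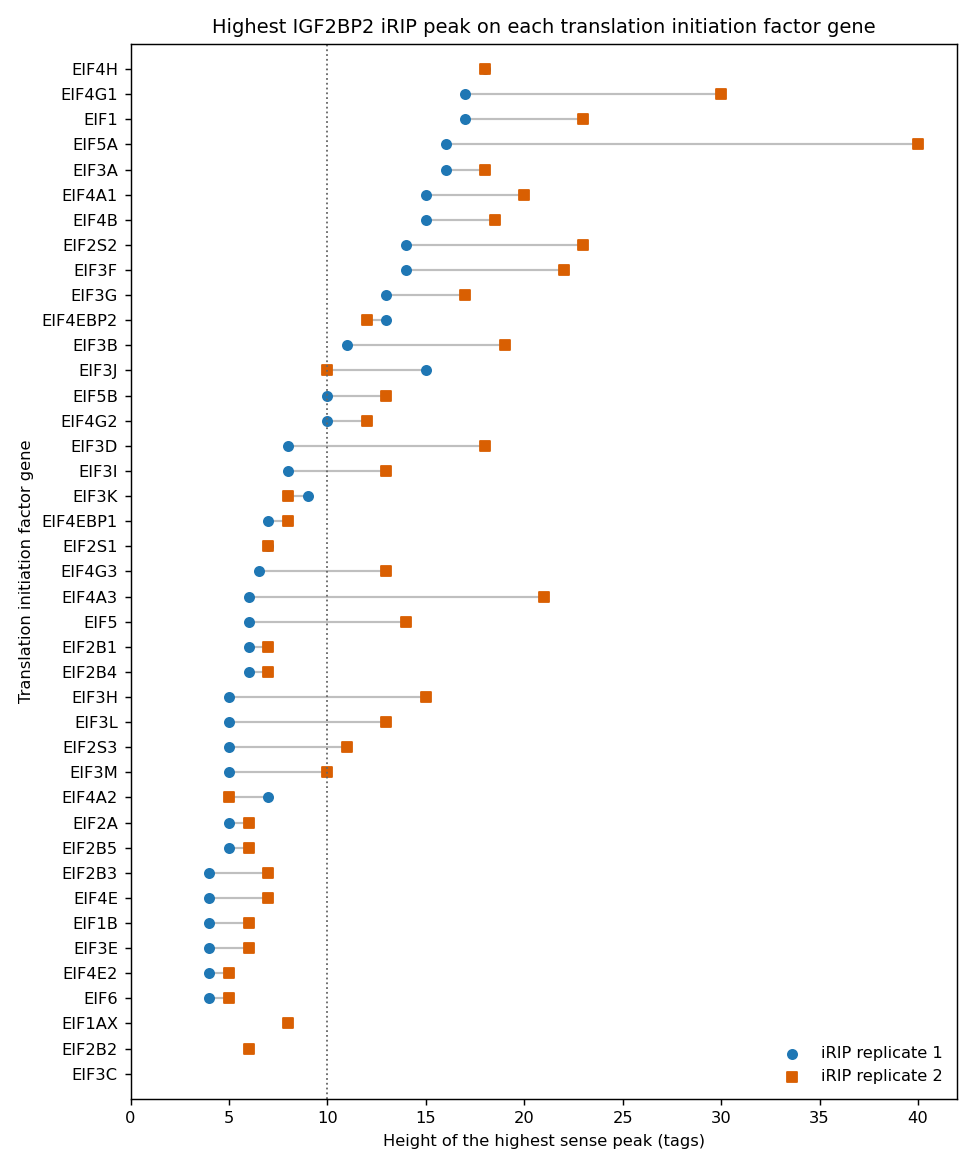
Height in tags of the highest sense peak on each of the 41 genes, with circles for iRIP replicate 1 and squares for iRIP replicate 2, ordered by the lower of the 2 heights. The dotted line marks 10 tags, where symbols coincide only the square is seen (EIF4H, EIF2S1), and EIF1AX, EIF2B2 and EIF3C lack a symbol in replicate 1.

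Sequences could be read only at the 5′ ends of genes, where the RefSeq promoter table gives the first 50 bases of genome sequence from the annotated transcript start. These bases can include intron, and the peak there on EIF4A1 was labelled mostly intron. The promoter table held 34 members, and 15 of them had a peak on these first bases. In 5 members this was so in both replicates (EIF4G1, EIF3F, EIF5, EIF5A and EIF2S3). No share over other genes stands beside these counts, so they cannot be called a trait of the members. The stretches below are bases under peaks at these 5′ ends, shown because the ribosome is loaded there. In 4 of them the start codon is reached, which is in capitals. They are from RefSeq (GRCh38.p14), 5′ to 3′, all on the plus strand.
EIF2S3: ctcttttggcaacATGgcgggcggagaagc
EIF3F: agATGgccacaccggcggtaccagtaagtg
EIF4B: ttttgcgttctctttccctctcccaacATG
EIF4H: tggttcctctcggagcggagacggcaaATG
EIF5: cattccagaggtgagtccggtgaaggggcg
EIF5A: cggcggcggcggtagaggcggcggcgg

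The EIF2S3 stretch (chrX:24054956-24054985) starts at the first base of the transcript, its start codon begins at base 14, and the peak on it had 4 tags in replicate 1 and 11 in replicate 2. EIF3F (chr11:7987351-7987380) has its start codon at base 17 of the transcript, under a peak of 4 and 16 tags. In both genes the peak covered the start codon in each replicate, and on EIF3F it lay almost wholly in CDS. The EIF5 stretch (chr14:103334251-103334280) had 4 and 10.5 tags, and that of EIF5A (chr17:7307651-7307677) had 6 and 10 tags. Both are 5′ UTR sequence, and the EIF5A stretch consists mostly of CGG repeats. EIF4B (chr12:53006457-53006486, 7 tags) and EIF4H (chr7:74174357-74174386, 9.5 tags), with the start codon at base 29 in each, had this peak in replicate 2 only.

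Transcripts of translation genes often begin with a C and a run of pyrimidines, the 5′ terminal oligopyrimidine element. A C followed by at least 4 pyrimidines stood at the annotated first base in 8 of 34 members (23.5%), against 6.24% of 15843 protein-coding genes. These were EIF2A, EIF2S3, EIF3D, EIF3F, EIF3K, EIF3M, EIF4A2 and EIF4B. The letters GGAC, the core of the m6A motif, were in the first 50 bases of 26.5% of members and 25.2% of protein-coding genes, and on the other strand (GTCC) in 26.5% and 24.4%. A match in these windows is a description of the sequence only.

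The factors that select the start site were EIF1, EIF1AX, EIF1B, EIF5 and EIF5B. EIF1 keeps the ribosome open for scanning and guards against wrong start codons, and ranked by the lower of the 2 heights its highest overlapping pair led the members together with that of EIF4G1. Its peak at chr17:41689751-41689800 had 17 tags in replicate 1 and 23 in replicate 2, higher than 99.6% and 99.4% of the sense peaks of each list. By the authors' shares, 46.0% of this bin was CDS and 54.0% noncoding exon. EIF1 had 7 and 6 peaks in a gene of only 3.78 kb, and 4 pairs overlapped. EIF5B, the GTPase that joins the large subunit, had 11 and 10 peaks. Its highest overlapping pair (chr2:99363601-99363650) had 10 and 13 tags and lay over the edge of an exon, with 12.0% of the bin in CDS and the rest in intron.

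EIF5, which makes eIF2 hydrolyse its GTP at the start codon, had 4 and 9 peaks with highest heights of 6 and 14 tags. The 5′ UTR held 3 of the 4 peaks and 4 of the 9, whereas no other scanning factor had more than 1 there. EIF1AX, which works beside EIF1 on the scanning ribosome, had 0 peaks in replicate 1 and 2 peaks of at most 8 tags in replicate 2. EIF1B, the close relative of EIF1, had 1 peak in each replicate, of 4 and 6 tags, and these did not overlap. EIF1 and EIF1B are close in sequence and only reads with 1 place in the genome were kept, and the part of this in the low values of EIF1B was not tested.

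The eIF2 complex carries the initiator tRNA and is the target of the stress kinases that shut translation down. All 3 subunit genes had overlapping peaks. EIF2S2, the beta subunit, had the highest pair of the complex (chr20:34112051-34112100), with 14 and 23 tags. That bin was 10.0% CDS and 90.0% intron, so it was counted as intronic although it touches coding sequence. EIF2S1, the alpha subunit that is phosphorylated in stress, had 2 and 4 peaks and an overlapping pair of 7 tags in each replicate (chr14:67364751-67364800), with 34.0% of the bin in the 5′ UTR and 66.0% in CDS. EIF2S3, the gamma subunit, had 5 peaks in each replicate with highest heights of 5 and 11 tags. In replicate 2 the height of 11 tags was reached both on the start codon sequence given above and at chrX:24055601-24055650, where replicate 1 had its highest peak of 5 tags.

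The eIF2B exchange factor, which reloads eIF2 with GTP, had the lowest peaks of all role groups. Its 5 genes held 8 and 21 peaks, none above 6 tags in replicate 1 or 7 tags in replicate 2. EIF2B1 and EIF2B5 had an overlapping pair each. EIF2B2 had 0 peaks in replicate 1 and 5 peaks in replicate 2, of 5 or 6 tags, of which 3 lay in CDS. EIF2B3 had 1 and 9 peaks, all intronic, in a gene of 136.1 kb, and EIF2B4 had 1 and 2 peaks, all in CDS. Neither EIF2B3 nor EIF2B4 had overlapping peaks.

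The eIF3 complex, the largest initiation factor, had 90 peaks in replicate 1 and 112 in replicate 2 on 12 of its 13 genes, with overlapping peaks on 11 and at least 10 tags in both replicates on 5. CDS held 54.4% and 65.2% of them. EIF3A, its largest subunit, had 14 and 15 peaks and a peak of 16 and 18 tags at chr10:119044051-119044100, of which 94.0% was CDS. EIF3G, an RNA-binding subunit, had 9 and 11 peaks in 4.89 kb, and 8 pairs overlapped. Its highest pair had 13 tags in both replicates (chr19:10115951-10116000 in replicate 1). A further pair of EIF3G had 12 and 14 tags.

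EIF3F, a subunit with an MPN domain, had 9 and 8 peaks and a highest pair of 14 and 11.5 tags (chr11:7992051-7992100 in replicate 1). In replicate 2 it held the highest peak of the complex, with a median of 14 tags and a highest of 22 tags, where replicate 1 had a median of 6 and a highest of 14. EIF3B, a scaffold subunit that also contacts the ribosome, had 12 and 18 peaks, of which 5 pairs overlapped, with 11 and 9 tags on the highest (chr7:2363051-2363100). EIF3D, the subunit that can bind the mRNA cap itself, had 9 peaks in each replicate and a pair of 8 and 7 tags (chr22:36525651-36525700). EIF3I had 6 and 5 peaks and a pair of 7 and 13 tags (chr1:32226401-32226450), 96.0% in CDS.

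EIF3H and EIF3L had more and higher peaks in replicate 2, where the highest peak was higher for 34 of the 41 members. EIF3H had 4 peaks of at most 5 tags in replicate 1 and 12 peaks of up to 15 tags in replicate 2, and EIF3L had 5 peaks of at most 5 tags and 12 peaks of up to 13 tags. EIF3M went the same way, with 2 and 9 peaks and highest heights of 5 and 10 tags. EIF3J, which sits loosely on the complex, went the other way, with highest heights of 15 and 10 tags. EIF3K had 7 and 6 peaks with 1 overlapping pair. EIF3E had 9 and 4 peaks of at most 4 and 6 tags and no overlapping pair, and only 4 of these 13 peaks lay inside its RefSeq interval, so most of them came from a gene model that reaches beyond it.

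EIF3C was the member without a peak of its own. Its RefSeq interval held 1 sense peak in replicate 1 (8 tags) and 2 in replicate 2 (up to 11 tags), all intronic and all under 1 other identifier that held 164 peaks in all. EIF3C has a near-identical copy, EIF3CL, and reads that fit both places were not kept by the authors, so the absence of peaks says nothing of binding.

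The cap-binding, scaffold and helicase factors carried 114 and 111 peaks on 9 genes, the most of all groups in replicate 1 and 1 fewer than the eIF3 subunits in replicate 2, and all 9 had a sense peak in both replicates. EIF4G1, the scaffold that joins the cap-binding protein, the helicase and the poly(A)-binding protein, led by peak number with 29 and 34, of which 16 in each replicate overlapped. Its highest pair, at chr3:184323401-184323450, had 17 and 30 tags and was 92.0% CDS. A second pair at chr3:184317301-184317350 had 10 and 16 tags. Of its peaks, 20 in replicate 1 and 23 in replicate 2 lay in CDS, and 3 and 5 in the 5′ UTR. Its overlapping pairs ran from the first bases of the gene to chr3:184331251-184331300, and none of its peaks lay mainly in the 3′ UTR.

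EIF4G3, a related scaffold, came second by number with 22 and 23 peaks, but in a gene of 370.6 kb and with 18 and 16 of them in introns. Its highest peaks had 6.5 and 13 tags, and 3 pairs overlapped. EIF4G2, the scaffold-like factor that does not bind eIF4E, had 13 and 11 peaks, of which 8 in each replicate overlapped, with highest heights of 10 and 12 tags. EIF4G1 and EIF4G2 thus had their peaks in genes of 20.8 and 11.9 kb, whereas most peaks of EIF4G3 were spread over introns.

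EIF4A1, the helicase of eIF4F, had 16 and 13 peaks and 9 overlapping pairs, the highest with 15 and 20 tags (chr17:7577801-7577850 in replicate 1). None of its peaks was assigned to CDS. The peaks with some 3′ UTR share, 10 in each replicate, ran from 23.5% to 90.6% of the gene length in replicate 1 and from 0.809% to 93.0% in replicate 2. RefSeq lists a read-through RNA, SENP3-EIF4A1, that spans EIF4A1, and whether the authors' identifier is that of the read-through was not tested. The region labels of EIF4A1 are therefore uncertain, and its positions and heights do not depend on them. EIF4A2, the related helicase, had 10 and 4 peaks of at most 7 and 5 tags.

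**Figure D3:**
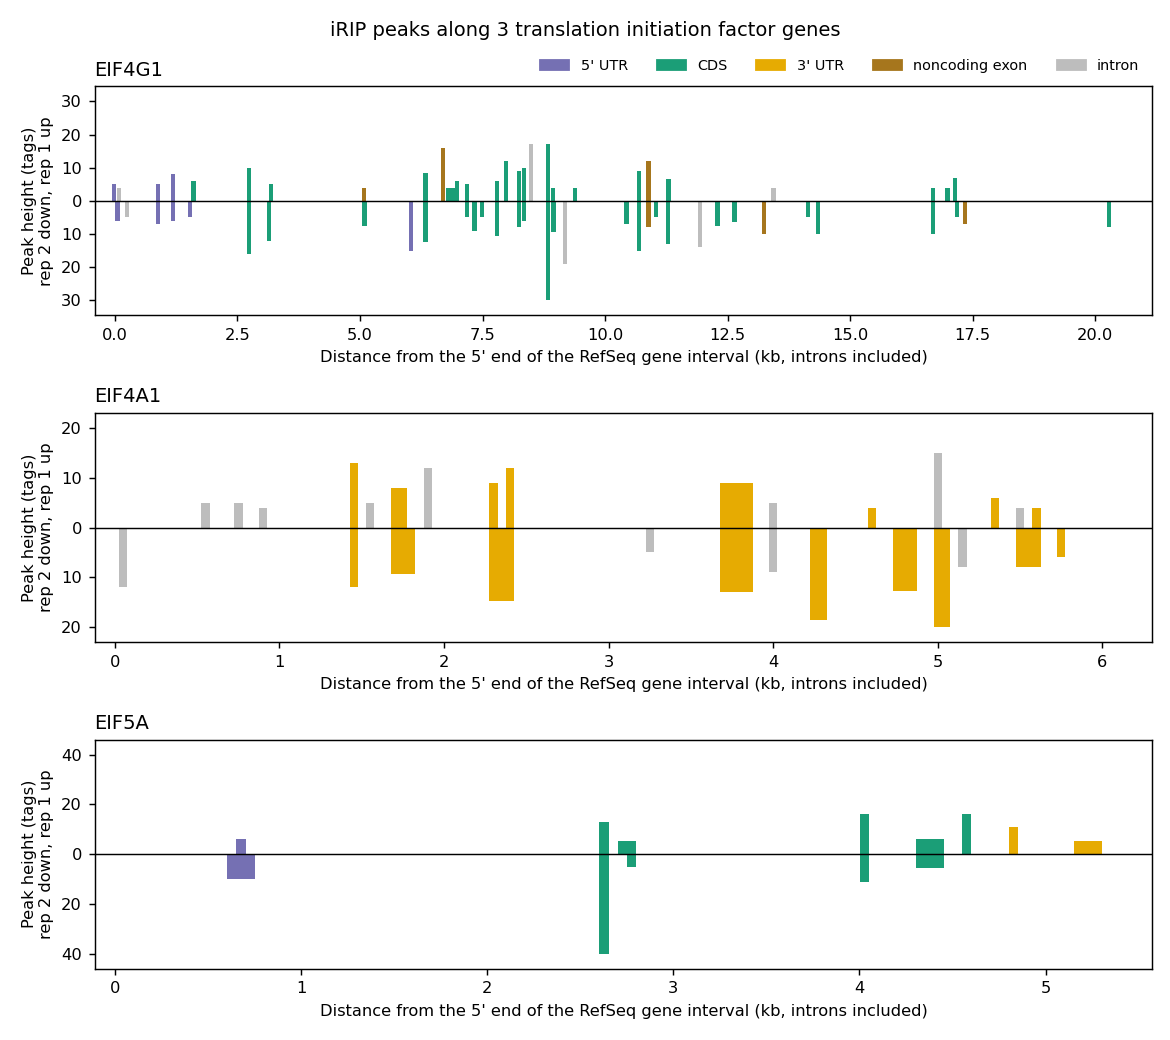
Sense peaks along EIF4G1, EIF4A1 and EIF5A, with distance from the 5′ end of the RefSeq interval in kb (introns included) on the x axis and height in tags on the y axis, replicate 1 upwards and replicate 2 downwards, coloured by main region. The pair of 17 and 30 tags stands in the middle of EIF4G1, the pair of 13 and 40 tags stands on EIF5A, and peaks labelled 3′ UTR run along most of EIF4A1.

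EIF4B and EIF4H both stimulate the helicase. EIF4B had 14 and 16 peaks with 9 overlapping in each replicate, and its highest pair (chr12:53018751-53018800 in replicate 1) had 8 and 18.5 tags. EIF4H had 5 and 7 peaks, and its highest pair at chr7:74195151-74195200 had 18 and 10 tags, 1 of the 19 pairs over all members that were higher in replicate 1. The cap-binding proteins themselves were at the low end. EIF4E had 4 peaks of 4 tags in replicate 1 and 2 peaks of up to 7 tags in replicate 2, all intronic, and EIF4E2 had 1 peak in each, of 4 and 5 tags. Neither had overlapping peaks. The eIF4E-binding repressors, which block the joining of eIF4E to eIF4G until mTOR releases them, both had overlapping peaks. EIF4EBP1 had 4 peaks in each replicate of at most 7 and 8 tags, and EIF4EBP2 had 6 in each, of at most 13 and 12 tags.

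Of the factors that carry an eIF name but act mainly elsewhere, EIF5A held the highest member peak of replicate 2, whereas that of replicate 1 was on EIF4H (18 tags). It is the elongation factor that helps the ribosome past stretches such as polyproline and it carries the modified residue hypusine. Its peak at chr17:7309601-7309650 had 13 tags in replicate 1 and 40 in replicate 2, higher than 98.9% and 99.9% of sense peaks, and reached over the edge of 5′ UTR and CDS, with 28.0% of the bin in 5′ UTR and 72.0% in CDS. A second pair at chr17:7311001-7311050 had 16 and 11 tags, so the order of the 2 peaks was opposite in the replicates. EIF4A3, the helicase of the exon junction complex, had 6 and 4 peaks, with highest heights of 6 and 21 tags. EIF2A had 4 and 2 peaks and EIF6, which keeps the ribosomal subunits apart, had 1 in each, and neither had overlapping peaks.

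The 5 members with the most peaks (EIF4G1, EIF4G3, EIF3B, EIF4B and EIF4A1) held 33.6% of member peaks in replicate 1 and 33.5% in replicate 2. The 15 members with the highest overlapping pair, ranked by the lower height, were EIF1, EIF4G1, EIF3A, EIF4A1, EIF2S2, EIF3G, EIF5A, EIF3F, EIF4H, EIF5B, EIF3B, EIF4B, EIF2S1, EIF3D and EIF3I. EIF2S1, EIF3D and EIF3I tied at 7 tags with EIF3J and EIF4EBP1, which fell outside by alphabetical order.

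Across all members, coding sequence was the most frequent place of a peak, whereas over all sense peaks it was the intron. A peak was assigned to the region that covered most of it. CDS held 126 of 277 member peaks in replicate 1 (45.5%, 95% Wilson interval 39.7% to 51.4%) and 166 of 310 in replicate 2 (53.5%, 48.0% to 59.0%). All sense peaks had 19.9% and 25.6% there, and those of named protein-coding genes 24.9% and 30.5%. These backgrounds held larger shares of intron peaks, and CDS was the most frequent exonic region in them too. The intervals, and the tests below, take peaks as independent, although many share a gene (29 and 34 were on EIF4G1). PCR copies are also not separate molecules. The intervals therefore reflect counting error alone and may be too narrow. Over the 2 libraries the mean was 49.5% ± 5.70 (SD, n = 2). The gap of 8.06 percentage points was not past the threshold (two-sided Fisher's exact test, p = 0.0573), which compares libraries and not conditions. With peaks of at least 5 tags in both lists, the lowest height of replicate 2, the shares were 57.3% and 53.5%, and the gap turned (-3.78 percentage points, two-sided Fisher's exact test, p = 0.491).

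Introns held 31.8% and 28.7% of member peaks, against 69.2% and 62.4% of all sense peaks and 64.1% and 57.4% of those of named protein-coding genes. Both UTRs held few, with 5.78% and 6.13% in the 5′ UTR against 6.50% and 6.13% in the 3′ UTR. Of the 18 and 19 peaks in the 3′ UTR, 8 and 9 were on EIF4A1, whose region labels are uncertain. The 3′ UTR share and the balance between the UTRs therefore rest in part on that gene. Noncoding exons held 10.5% and 5.48%, against 4.46% and 4.75% of all sense peaks and 3.17% and 3.41% of those of named protein-coding genes. Labels of both 5′ UTR and CDS were held by 7 and 13 member peaks, and labels of both CDS and 3′ UTR by 10 and 9. Such peaks need not lie at the main start or stop codon. In replicate 1 the EIF3G peak at chr19:10119051-10119100 held CDS and 3′ UTR, near the 5′ end of this minus-strand gene (10119899). In replicate 2 the EIF4G1 peak at chr3:184320601-184320650 held 5′ UTR and CDS, downstream of the CDS peak at chr3:184317301-184317350. Whether such labels come from other transcripts of the gene was not tested. A bin with both CDS and intron sequence was common, with 90 peaks (32.5%) and 120 peaks (38.7%). All sense peaks had 15.5% and 21.0%, and those of named protein-coding genes 19.2% and 25.0%. Many peaks of these genes thus lay at the edges of coding exons, but not more often, relative to CDS peaks, than over all sense peaks. Members had 90 and 120 such peaks beside 126 and 166 in CDS. All sense peaks had 11471 and 16248 beside 14772 and 19750.

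**Figure D4:**
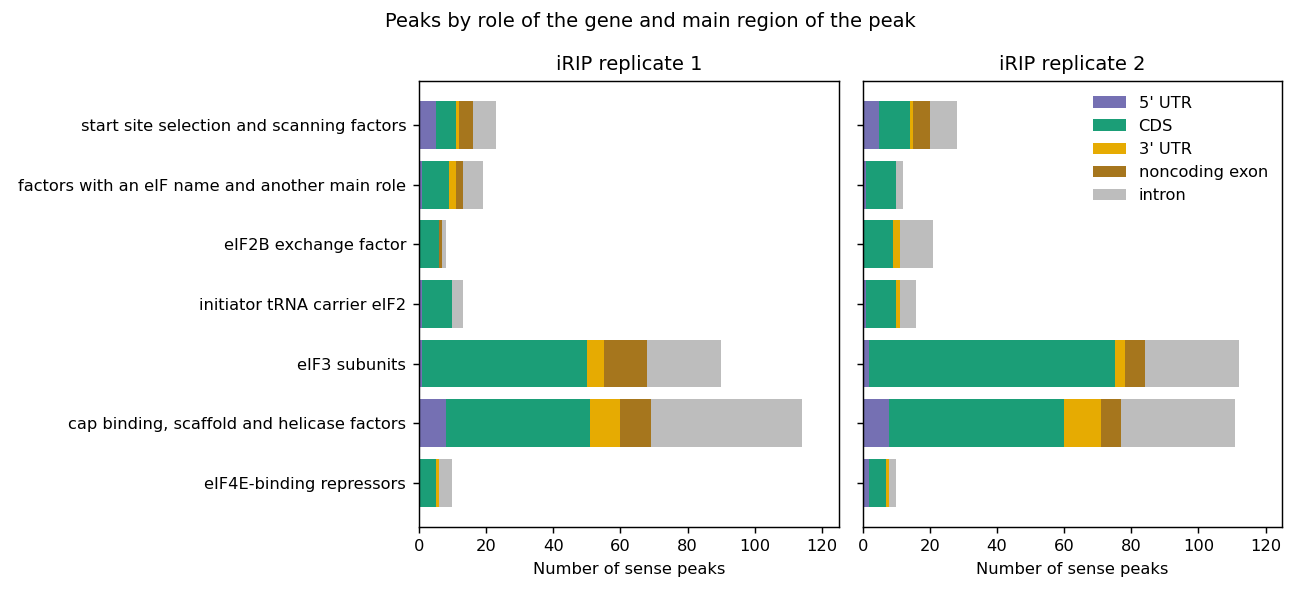
Number of sense peaks in each role group of the 41 genes for iRIP replicate 1 (left) and 2 (right), with bars divided by the main region of the peak. The eIF3 subunits (90 and 112 peaks) and the cap-binding, scaffold and helicase factors (114 and 111) hold most peaks, and eIF2B holds 8 and 21.

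Of the member peaks of replicate 1, 123 (44.4%, 38.7% to 50.3%) overlapped a peak of replicate 2, where 16.6% of all sense peaks did. In the other direction it was 120 of 310 (38.7%), against 15.8%. The share was 58.7% for CDS peaks of members in replicate 1 and 23.9% for intron peaks, against 45.8% and 7.11% over all sense peaks. There were 123 overlapping pairs, and 76 of them (61.8%) had the same start and end in both lists. Replicate 2 was higher in 95 pairs, replicate 1 in 19, and 9 were equal. The 8 members with peaks in both replicates but no overlapping pair were EIF1B, EIF2A, EIF2B3, EIF2B4, EIF3E, EIF4E, EIF4E2 and EIF6, none of which had a peak of 10 tags.

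Small RNAs lie in the introns of several members, where a peak can stem from the small RNA rather than the mRNA. RefSeq places 18 of them inside 10 members, and 4 had a sense peak on them. SNORD10 in EIF4A1 had a peak in both replicates (5 and 9 tags), SNORA48 in EIF4A1 had 12 tags in replicate 1 only and SNORA67 in EIF4A1 had 8 tags in replicate 2 only. SNORD2 in EIF4A2 was met by 5 nt of a peak of 5 tags in replicate 1. The highest pairs of the members did not lie on any of these small RNAs.

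The other genes of the pathway gave a scale for these heights. Of 10 elongation and termination factor genes, 8 had a sense peak in both replicates, 7 had overlapping peaks and 4 had at least 10 tags in both. Of 30 regulators and partners of initiation, 19, 12 and 5 did so, and 6 of the 30 could not be named. EEF2, which moves the ribosome along the mRNA, had the highest pair of all these genes with 36 and 73 tags. LARP1, which binds terminal oligopyrimidine mRNAs, had 20 and 21 tags on its highest pair, and EEF1B2, a subunit of the elongation exchange factor, had 23 and 19. EEF1A1, which delivers tRNAs, had a highest pair of 13.7 and 18.7 tags, although its highest single peaks of 43 and 76 tags, which were not an overlapping pair, were above those of EEF2, and PABPC1, the poly(A)-binding protein, had 13 and 28. The highest pair of EEF2 was higher in both replicates than the highest pair of EIF1 or EIF4G1.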

How the data were processed

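IGF2BP2-bound RNA of Jurkat cells was sequenced by the authors as read pairs and aligned with TopHat2 to GRCh38 (processing notes of the submitters). Uniquely mapped reads were kept, peaks were called in each library by the ABLIRC strategy, and peaks overlapping input peaks were removed. Heights were deposited as a signal counted in tags, without normalization, and height times the number of 50-nt bins was whole in 100% of peaks (tolerance 0.01). The deposited p-value of each peak comes from the authors' simulation and was not used further. The source of the region annotation is not given in the sources used here.

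Identifiers were named by position. An identifier took the only protein-coding gene (RefSeq, with its strand where the promoter table gives one) that held at least 80% of its CDS and UTR peaks with a margin of 1000 nt, or all its sense peaks where it had none. A gene already taken was removed in a second round. In all, 12776 of 20428 identifiers were named, and 7678 of 7978 with CDS or UTR peaks (96.2%). Unnamed genes lower the background counts. File starts count from 0 and were printed from 1. Naming and overlap were tested on simulated data. Values in full were given for the 15 members with the highest overlapping pair, members with peaks in 1 replicate only or none, the 5 members with most peaks, and the 5 other pathway genes with the highest pair. Further members were described from their values. Members and lists were chosen with earlier results of these data known. Alternatives were minimum heights, exonic peaks, RefSeq intervals, overlap rules, length weighting, and each replicate or EIF4A1 left out. Python 3.11.15 was used with numpy 2.4.6, pandas 2.3.3, scipy 1.17.1 and matplotlib 3.10.9.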

Additional observations from a re-analysis of the deposited data

Results flagged for a closer look

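Peaks that lay mainly on the antisense strand of a member were outside the counts above. There were 32 of them in replicate 1, on 12 members and of at most 6 tags, and 16 in replicate 2, on 6 members and of at most 7 tags. EIF4G3, the longest member, held 9 and 6 of them. They are peaks in data that the comparisons did not use. No antisense share over all genes stands beside these counts, so they cannot be called many or few. With no input library analysed there was also no control level to set them against. Whether they come from other transcripts on that strand was not tested.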

How the results depend on the processing

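The comparison of 10 results under their alternatives gave 61 values, of which 46 were counted as unchanged. The limit was the error or 1.5 times the count. For the tested difference in CDS share it was the same direction and the same side of the test threshold. With a height of at least 10 tags, 15 members had a sense peak in both replicates, 15 in replicate 1 and 24 in replicate 2, 10 had an overlapping pair, 35 and 80 member peaks remained, and the CDS shares were 54.3% and 60.0%. With at least 5 tags, replicate 1 had 157 member peaks, 61.1% of which overlapped replicate 2, a CDS share of 57.3% in replicate 1, and a reversed difference in CDS share (-3.78 percentage points). With exonic peaks only, 52.9% of member peaks of replicate 1 overlapped replicate 2. The CDS shares, with no background for exonic peaks beside them, were then 66.7% and 75.1%, since intron peaks no longer counted. Other causes were not tested. Without replicate 1 or without replicate 2, the count of members with a peak ranged from 38 to 40, and overlap cannot be computed from 1 library. Leaving out EIF4A1 was chosen after seeing the data and moved no result past these limits. No paired analysis was possible because no input library was analysed here, which leaves 1 group. The unknown depth limits what a missing peak can say, since the lists start at 4 and 5 tags.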
